A study of Homo sapiens with 6 samples.

Results

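The enzymes that make asparagine, proline, alanine, aspartate and glutamine were examined in the RNA-seq of HK-2 cells, a line of immortalised human proximal tubule epithelial cells. The set held 7 genes, ASNS, PYCR1, ALDH18A1, GPT2, GOT1, GOT2 and GLUL. They were taken by name from the 58825 genes of the deposited table, each had 1 entry there, and all 7 were among the 19510 genes tested. There were 6 libraries, 3 from Control cells, which the labels give as untreated, and 3 from cells given 25 μg/mL OX-LDL (oxidised low-density lipoprotein) for 48 h. The study used OX-LDL in this line as a cell model of lipid-driven kidney fibrosis. Its methods place a period in low-serum DMEM/F12 before the OX-LDL, but neither they nor the labels say how long the Control cells were kept or whether they had the same low-serum period. The labels name no genetic change in either group, and they do not tie each library to a culture of its own. The methods speak of independent repeats of the cell experiments in general, without saying so of these libraries. If the libraries share a culture, the p-values measure a technical spread only.

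These amino acids are called non-essential because a cell can build them from intermediates of glycolysis and the citric acid cycle, with glutamate or glutamine as the source of nitrogen. Aminotransferases move the amino group of glutamate onto oxaloacetate to give aspartate or onto pyruvate to give alanine. Asparagine is made from aspartate with nitrogen from glutamine, proline is made from the carbon skeleton of glutamate, and glutamine is made from glutamate and ammonia. Proximal tubule cells handle large amounts of glutamine and glutamate in the intact kidney, where the ammonia set free serves acid excretion. Transcription factors of the ATF4 and C/EBP families are known to drive several of these genes when amino acids are scarce or proteins misfold.

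ASNS and GOT1 were the members with a promoter window that held the letters TGATGNAA, the core of the C/EBP-ATF response element, on either strand. The 2 stretches below show those letters in their surroundings because ATF4 and C/EBP genes were measured in the same libraries. They come from RefSeq (GRCh38.p14), run 5′ to 3′ along the minus strand, on which both genes lie, and end upstream of the start. Capitals mark the match, which in GOT1 reads on the opposite strand to the gene.
ASNS, chr7:97872433-97872512: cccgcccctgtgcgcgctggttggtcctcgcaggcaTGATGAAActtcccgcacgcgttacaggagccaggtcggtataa
GOT1, chr10:99430779-99430858: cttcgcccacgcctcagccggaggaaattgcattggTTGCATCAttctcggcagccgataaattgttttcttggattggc
The match lay at bases -68 to -61 from the start in ASNS and at -198 to -191 in GOT1. Windows of 250 bases before to 50 after a start were searched for 5 members, ALDH18A1, GOT2 and GLUL being the others. These members had 7 windows, and the second window of ASNS, at chr7:97872116-97872415, held no match. The same letters were in 3.62% of all 35116 windows, and 4.46% of all genes had them in at least 1 window. The CRE core TGACGTCA, which shares no full match with the first motif, was in no member's window and in 1.85% of all windows. A match of letters is a description of the sequence and not of binding.

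All 7 enzymes passed the test between OX-LDL and Control, 4 lower and 3 higher. Over all genes tested, 15.3% passed it, 7.42% lower and 7.91% higher. This share takes in genes at low levels. It was larger with a minimum mean of 1 FPKM, where 3152 of 12259 genes passed. The enzymes were chosen with earlier results of these data known, so this comparison carries no test of the set. A gene passed with an adjusted p under 0.05 in edgeR's quasi-likelihood test, with Benjamini-Hochberg adjustment over all genes tested. Lower in OX-LDL were ASNS, GPT2, PYCR1 and GOT1. Higher were ALDH18A1, GLUL and GOT2. The number of the 7 that passed fell to 4 without Control 2 or without OX-LDL 3. ASNS, PYCR1, ALDH18A1 and GOT1 passed in every alternative tried.

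**Figure D1:**
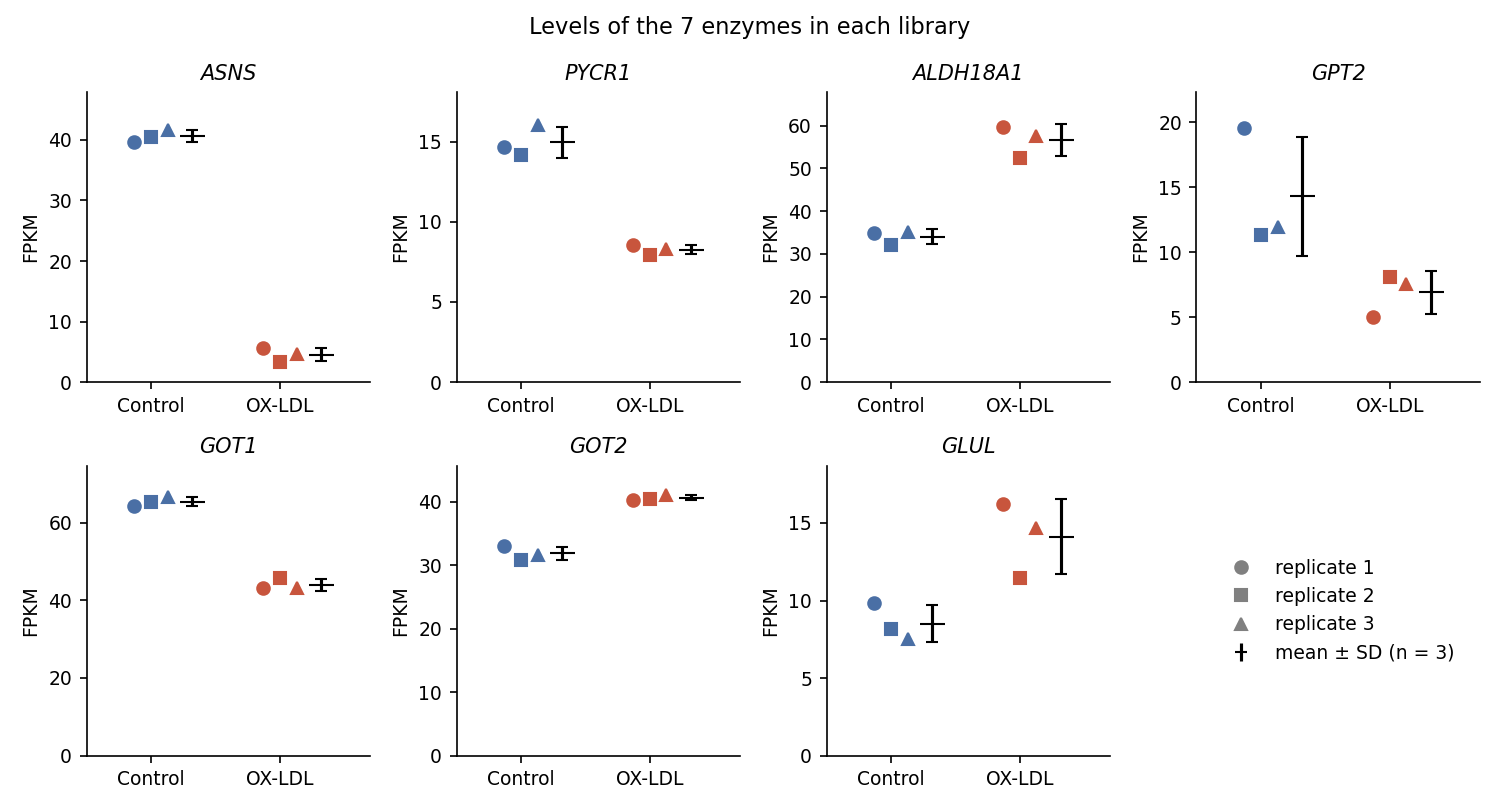
Each panel plots 1 enzyme, with FPKM on the vertical axis from 0 and the 3 Control and 3 OX-LDL libraries as points, shaped by replicate, beside the mean ± SD. In no panel do the groups overlap, and the gap is widest for ASNS (39.7 to 41.6 FPKM in Control cells, 3.36 to 5.61 FPKM with OX-LDL).

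ASNS encodes asparagine synthetase, the enzyme that converts aspartate to asparagine. Its level in FPKM, fragments per unit of gene length and library size, was 39.7, 40.5 and 41.6 in Control, against 5.61, 3.36 and 4.67 with OX-LDL. The 3 Control libraries were close to each other, and every OX-LDL library was far below them. The mean was 40.6 ± 0.982 FPKM in Control, against 4.55 ± 1.13 FPKM with OX-LDL (SD, n = 3), so OX-LDL cells kept 11.2% of the Control level. In edgeR, ASNS was lower by a log2 fold change of -3.13 (SE 0.18, adjusted p = 0.0005043). Among the 12259 genes whose mean reached 1 FPKM, 30 had a larger log2 fold change in either direction. The measurements are of bulk RNA, in which fewer cells that express a gene and less RNA per cell cannot be told apart.

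The ASNS gene (ENSG00000070669) is at chr7:97851677-97872542 on the minus strand of GRCh38. A second entry of the table, ENSG00000284707, lies over it on the same strand at chr7:97851688-97972985. The GENCODE release 29 annotation describes it as a read-through locus of the processed transcript type, which starts 100.4 kb upstream of ASNS. Its exons share 1985 bases with those of ASNS, 44.6% of the 4455 exonic bases of ASNS. Reads in those bases can be given to either entry by the counting.

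The deposited counts of the read-through entry were 1047, 1145 and 1700 in Control and 38, 88 and 29 in OX-LDL. It was therefore also lower in every OX-LDL library, by a log2 fold change of -4.62 (SE 0.463, edgeR adjusted p = 0.002568). The counts of ASNS itself were 17070, 17685 and 16604 in Control and 2030, 1500 and 2075 in OX-LDL. The read-through entry took 5.78 to 9.29% of the counts of both entries in Control and 1.38 to 5.54% in OX-LDL. With the counts of both entries and of AC005326, a pseudogene within the locus with at most 2 counts in a library, added together, the locus was lower by -3.19 (SE 0.173, edgeR adjusted p = 0.000364). The difference in ASNS thus had the same direction and nearly the same size when the split between the entries was removed.

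**Figure D2:**
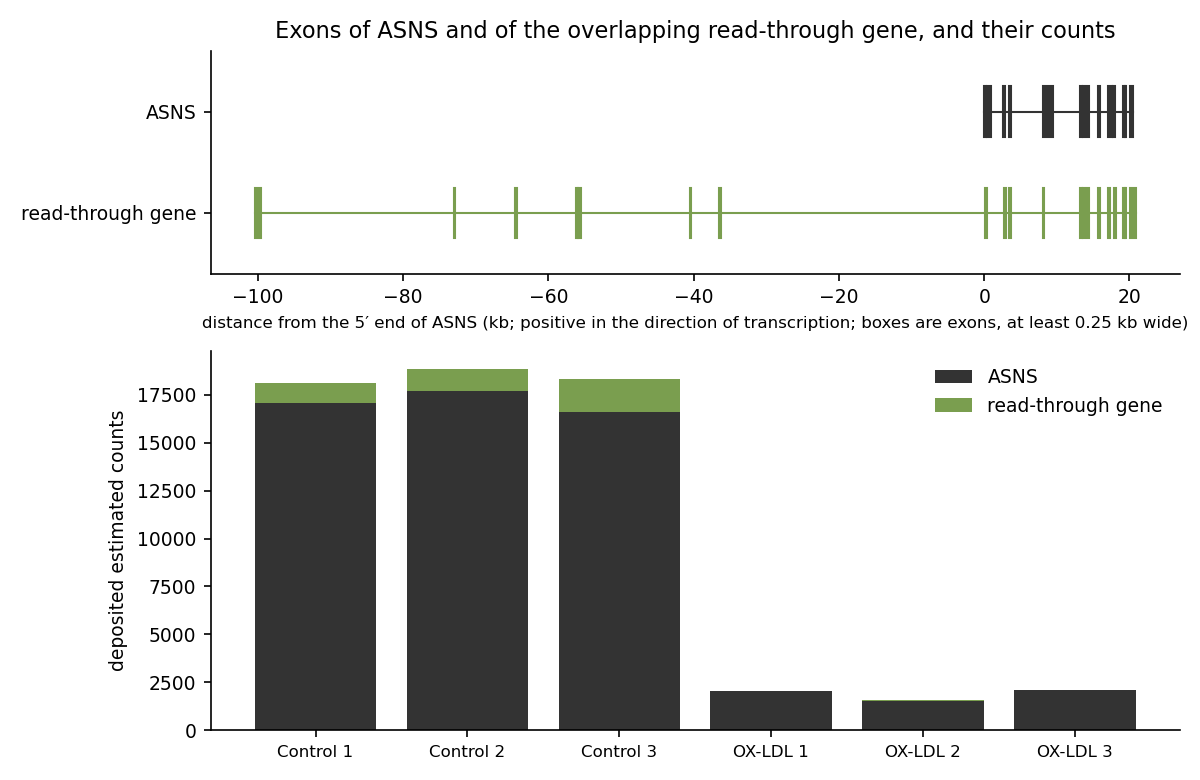
The upper panel maps the exons of ASNS and of the overlapping read-through locus by distance in kb from the 5′ end of ASNS, and the lower panel stacks the deposited counts of both entries for each library from 0. The read-through entry takes 5.78 to 9.29% of each Control bar and 1.38 to 5.54% of each OX-LDL bar, which are themselves far shorter.

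GOT1 and GOT2 encode the cytosolic and the mitochondrial aspartate aminotransferase, which both take part in the malate-aspartate shuttle. Their levels moved in opposite directions. GOT1 (ENSG00000120053, chr10:99396870-99430624, minus strand) stood at 64.2, 65.4 and 66.7 FPKM in Control, against 43.3, 45.8 and 43.1 FPKM with OX-LDL. The replicates lay within a few FPKM of each other and the groups were well apart. The mean went from 65.4 ± 1.24 to 44.0 ± 1.52 FPKM (SD, n = 3), and the log2 fold change was -0.54 (SE 0.064, edgeR adjusted p = 0.004546).

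GOT2 (ENSG00000125166, chr16:58707131-58734342, minus strand) had 33.0, 30.9 and 31.7 FPKM in Control, against 40.3, 40.4 and 41.1 FPKM with OX-LDL. The OX-LDL libraries were the higher ones, and their coefficient of variation of 0.959% was the smallest of any member in either group. The mean was 31.9 ± 1.08 and 40.6 ± 0.389 FPKM (SD, n = 3), a log2 fold change of 0.38 (SE 0.066, edgeR adjusted p = 0.01333). GOT2 no longer passed without Control 2 (0.35, adjusted p = 0.0531) or without OX-LDL 3 (0.37, adjusted p = 0.0561). An overlapping entry, AC092378, had no counts, and the 6 rows named as GOT2 pseudogenes together had at most 0.248% of the counts of GOT2 in any library.

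Within each library, GOT1 was at 1.94, 2.12 and 2.10 times the FPKM of GOT2 in Control and at 1.07, 1.13 and 1.05 times in OX-LDL. The cytosolic form thus exceeded the mitochondrial one in all 6 libraries, by a wide margin in Control and by a narrow one in OX-LDL. The mean ratio was 2.06 ± 0.0961 and 1.08 ± 0.0429 (SD, n = 3), and the log2 ratio differed by -0.92 (SE 0.051). With 3 libraries against 3, an exact two-sided permutation test cannot give a p under 0.1, which was its value here (0.167 after Benjamini-Hochberg adjustment over the 5 ratios tested).

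**Figure D3:**
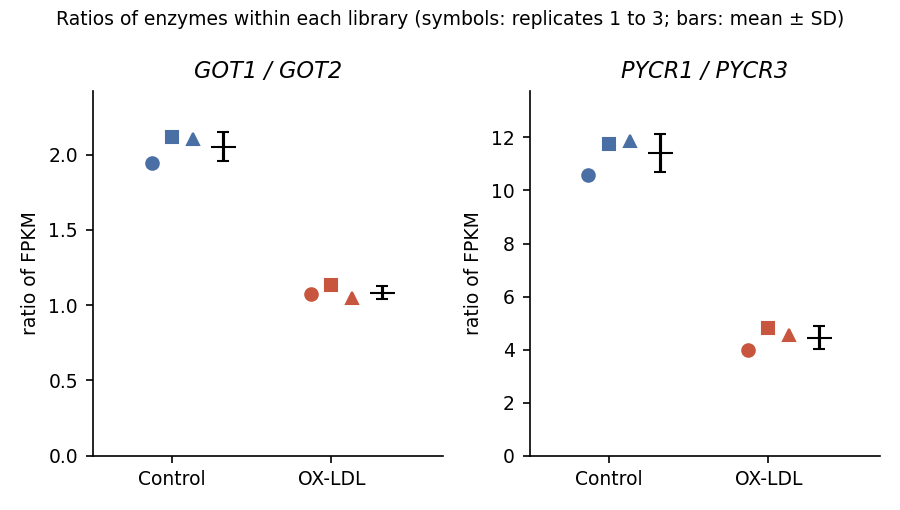
Each panel plots the ratio of FPKM of 2 enzymes within each library on an axis from 0, with mean ± SD beside the 3 points of each group. GOT1 / GOT2 goes from 1.94 to 2.12 in Control down to 1.05 to 1.13 in OX-LDL, and PYCR1 / PYCR3 from 10.6 to 11.9 down to 3.99 to 4.83.

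GPT2 encodes the mitochondrial alanine aminotransferase, which makes alanine from pyruvate and glutamate. GPT2 (ENSG00000166123, chr16:46884362-46931289, plus strand) had 19.6, 11.4 and 11.97 FPKM in Control, against 5.05, 8.13 and 7.58 FPKM with OX-LDL. Control 1 stood above the rest and OX-LDL 1 below, and the groups did not overlap. The mean was 14.3 ± 4.59 and 6.92 ± 1.64 FPKM (SD, n = 3), a coefficient of variation of 32.1% in Control, the largest of the 7 enzymes. The log2 fold change was -1.02 (SE 0.27), and its edgeR adjusted p of 0.04868 was just under the threshold. GPT2 did not pass when any 1 of the 6 libraries was left out (edgeR adjusted p from 0.0643 to 0.121), and its log2 fold change without Control 1 was -0.71. GPT, the gene for the cytosolic alanine aminotransferase, was near the limit of detection with 4 to 16 counts in each library, so the ratio of GPT2 to GPT is not interpretable (exact permutation p = 0.3, adjusted p = 0.3).

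ALDH18A1 and PYCR1 act one after the other in proline synthesis, and their levels went in opposite directions. ALDH18A1 encodes P5C synthase, which turns glutamate into the precursor of proline and ornithine. It is at chr10:95605941-95656711 on the minus strand (ENSG00000059573) and had 34.8, 32.2 and 35.2 FPKM in Control, against 59.6, 52.4 and 57.6 FPKM with OX-LDL. Every OX-LDL library was higher. The mean rose from 34.1 ± 1.66 to 56.5 ± 3.75 FPKM (SD, n = 3), 1.66 times, with a log2 fold change of 0.76 (SE 0.080, edgeR adjusted p = 0.002923).

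PYCR1 encodes the mitochondrial P5C reductase, the last enzyme of proline synthesis. It is at chr17:81932384-81941079 on the minus strand (ENSG00000183010) and had 14.7, 14.1 and 16.0 FPKM in Control, against 8.52, 7.96 and 8.33 FPKM with OX-LDL. The OX-LDL libraries were close to each other and all below Control. The mean fell from 15.0 ± 0.983 to 8.27 ± 0.288 FPKM (SD, n = 3), with a log2 fold change of -0.82 (SE 0.086, edgeR adjusted p = 0.002907). The overlapping entries MYADML2 and AC145207 had no counts in any library.

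PYCR3 encodes a cytosolic P5C reductase. It did not pass the test, with 1.31 ± 0.0992 and 1.87 ± 0.247 FPKM (SD, n = 3, log2 fold change 0.54, edgeR adjusted p = 0.0645). The ratio of PYCR1 to PYCR3 was 10.6, 11.8 and 11.9 in Control, against 3.99, 4.83 and 4.54 with OX-LDL, a difference of -1.36 in log2 (SE 0.097). No OX-LDL library reached a Control library, and the exact permutation p was 0.1, the smallest possible here (0.167 adjusted).

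GLUL encodes glutamine synthetase, which fixes ammonia onto glutamate. GLUL (ENSG00000135821, chr1:182381704-182392206, minus strand) had 9.82, 8.18 and 7.50 FPKM in Control, against 16.2, 11.5 and 14.7 FPKM with OX-LDL. OX-LDL 2 was the lowest of its group but stayed above each Control library. The mean was 8.50 ± 1.19 and 14.1 ± 2.43 FPKM (SD, n = 3), a log2 fold change of 0.76 (SE 0.157, edgeR adjusted p = 0.02263). GLUL did not pass without Control 2 (edgeR adjusted p = 0.0847), Control 3 (0.0653), OX-LDL 1 (0.0715) or OX-LDL 3 (0.0771), with log2 fold changes from 0.66 to 0.73.

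The order of the levels also differed between the groups. In Control, GOT1 was the highest of the 7, followed by ASNS, ALDH18A1, GOT2, PYCR1, GPT2 and GLUL. The ranges of ALDH18A1 and GOT2 overlapped there, as did those of PYCR1 and GPT2. In OX-LDL, ALDH18A1 was the highest, followed by GOT1, GOT2, GLUL, PYCR1, GPT2 and ASNS. The ranges of PYCR1 and GPT2 overlapped again, and so did those of GPT2 and ASNS. ASNS thus went from the second place to the last, and GLUL from the last place to the fourth. The summed level of the 7 genes was 203 to 216 FPKM in Control, against 170 to 179 FPKM with OX-LDL. This sum includes ASNS, whose mean went from 40.6 to 4.55 FPKM, while 3 of the 7 were higher with OX-LDL. It therefore does not describe the enzymes other than ASNS.

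Groups that did not overlap in FPKM were seen for all 7 members and for 37.2% of all genes tested. A fold change above 2 or below 0.5, the fold limit of the study, together with an unadjusted p under 0.05 was reached by ASNS and GPT2, 2 of 7, against 6.36% of all genes tested. GPT2 was close to the fold limit and fell on both sides of it in the alternatives. Its log2 fold change was -1.167 to -0.7091 with single libraries left out and -1.043 to -0.9329 in the other settings. The results section of the study does not say whether its own p was adjusted, while its methods speak of adjusted values. The members' median log2 fold change was -0.54, and their median size in either direction was 0.76 in log2. Over all genes tested these medians were -0.0043 and 0.329.

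**Figure D4:**
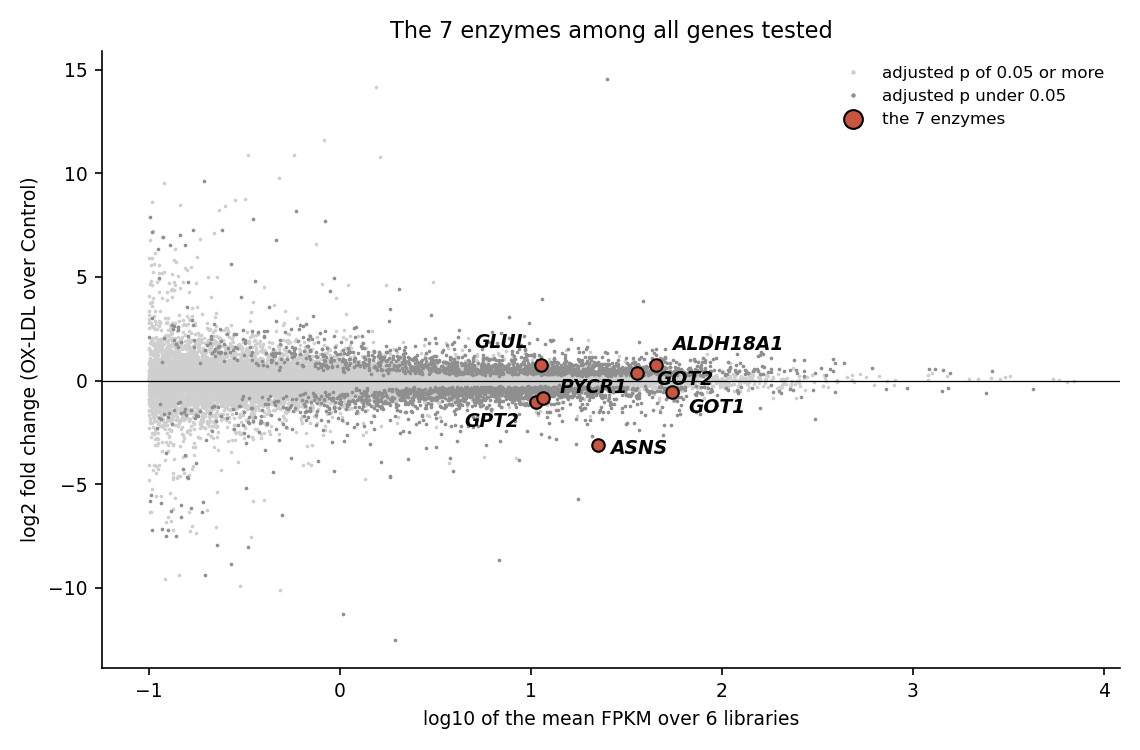
Every tested gene is a point, with log10 of its mean FPKM over the 6 libraries on the horizontal axis and its log2 fold change on the vertical axis. The 7 enzymes are labelled, ASNS sits below most genes of its level at -3.13, and the other 6 lie between -1.02 and 0.76.

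Outside the 7 enzymes, 39 further genes of the same pathways were followed. Of these, 32 were tested and 11 passed, 5 higher and 6 lower, beside 15.3% of all genes tested. With a minimum mean of 1 FPKM, 13 of the 39 passed, beside 3152 of 12259 genes. Of the 14 genes of asparagine and aspartate metabolism, 12 were tested, and those that passed were ASS1 and ASRGL1, both lower. ASS1, argininosuccinate synthase, joins aspartate to citrulline and went from 33.7 ± 5.96 to 17.0 ± 1.19 FPKM (SD, n = 3, log2 fold change -0.95, edgeR adjusted p = 0.007711). ASRGL1, an asparaginase that breaks asparagine down to aspartate, went from 6.64 ± 1.08 to 4.10 ± 0.239 FPKM (SD, n = 3, log2 fold change -0.66, edgeR adjusted p = 0.02556). The malate dehydrogenases and the carriers of the malate-aspartate shuttle were among the 10 genes that did not pass.

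For proline and ornithine, 5 of 6 genes were tested and 1 passed. This was OAT, ornithine aminotransferase, which links ornithine to the proline precursor and was higher (32.0 ± 1.72 and 44.5 ± 1.75 FPKM, SD, n = 3, log2 fold change 0.51, edgeR adjusted p = 0.00872). Of 8 genes of alanine and glutamate metabolism, 5 were tested and GLUD1 alone passed. In both lists 20% of the tested genes passed, close to the 15.3% of all genes tested. GLUD1, the mitochondrial glutamate dehydrogenase, was higher (38.4 ± 1.51 and 50.7 ± 3.15 FPKM, SD, n = 3, log2 fold change 0.43, edgeR adjusted p = 0.01432). Its value is uncertain to the extent that reads are shared with the near-identical copy GLUD2, which had 87 to 170 counts in each library against 12129 to 18212 for GLUD1.

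Glutamine-using enzymes made up most of the genes that passed, with 7 of the 10 tested, 3 higher and 4 lower. The share over all genes tested was 15.3%, and it was larger with a minimum mean of 1 FPKM (3152 of 12259 genes). The smallest p was that of CTPS1, a CTP synthase that takes nitrogen from glutamine, which went from 49.8 ± 2.13 to 22.5 ± 3.05 FPKM (SD, n = 3, log2 fold change -1.12, edgeR adjusted p = 0.002339). Its paralog CTPS2 went the other way, from 6.96 ± 0.237 to 9.59 ± 0.248 FPKM (SD, n = 3, log2 fold change 0.49, edgeR adjusted p = 0.009015). NADSYN1, NAD synthetase, was higher by 0.77 in log2 at a low level (0.941 ± 0.0972 and 1.58 ± 0.109 FPKM, SD, n = 3, edgeR adjusted p = 0.007886). The others that passed were GFPT1, CAD and PPAT, which were lower, and GMPS, which was higher.

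**Figure D5:**
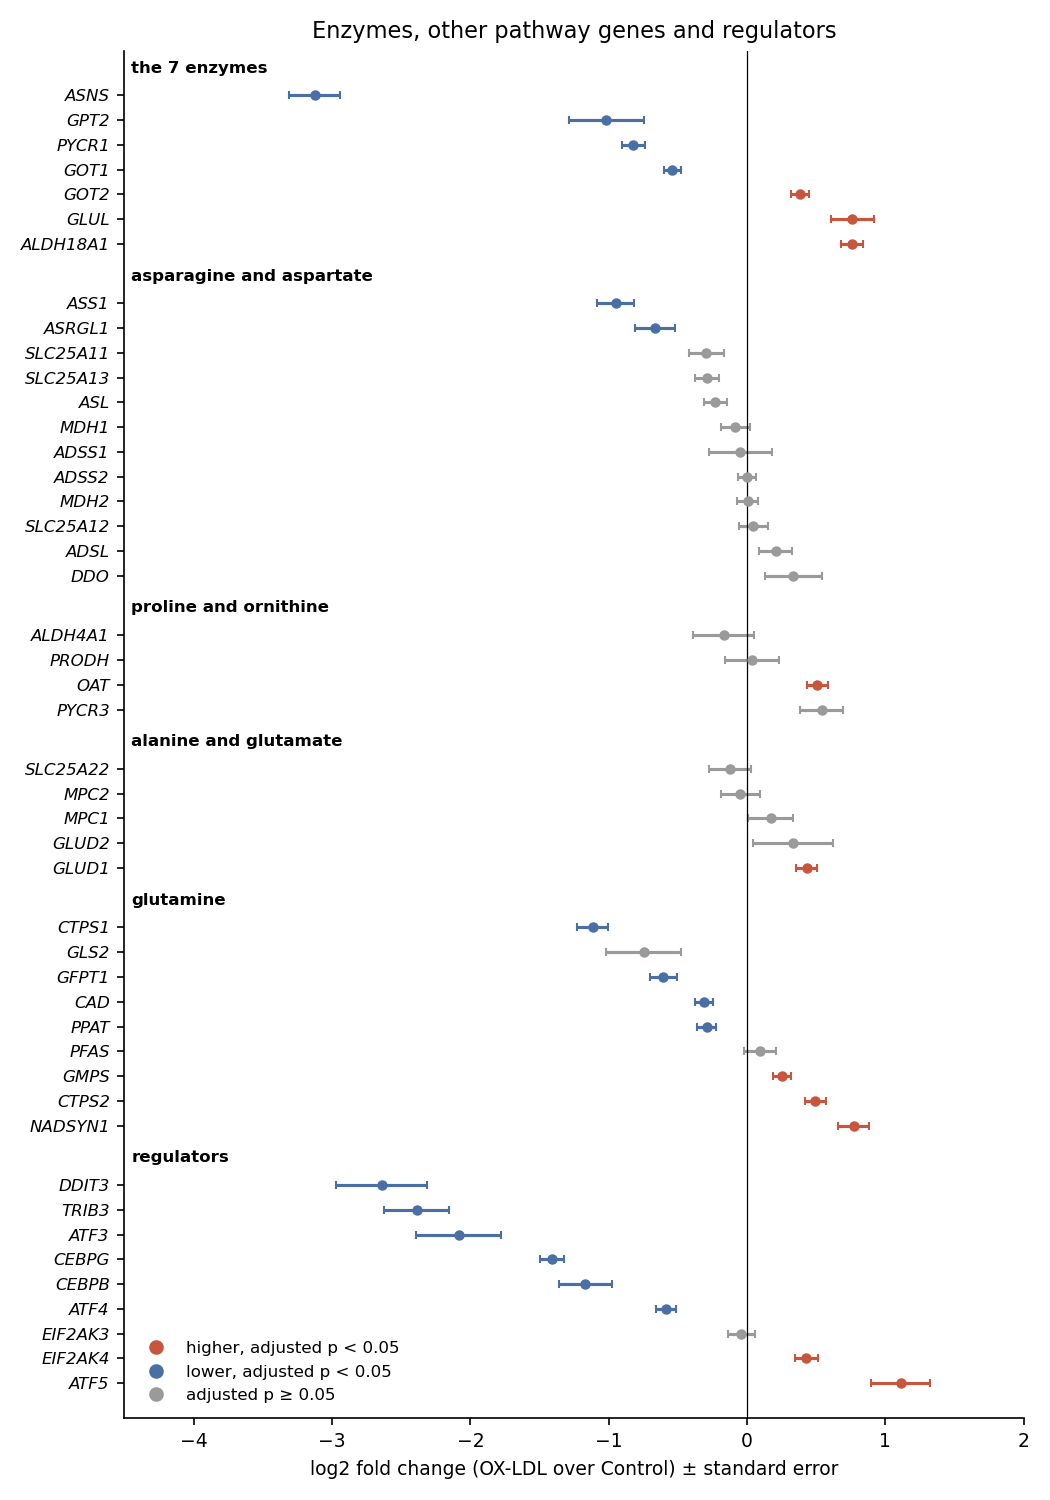
Points are log2 fold changes (OX-LDL over Control) and bars their standard errors, for the 7 enzymes, most of the other tested pathway genes and the regulators, coloured by whether and in which direction they passed. MYC is left out because its standard error of 1.37 would stretch the axis, and ASNS lies farthest to the left at -3.13.

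The amino acid response is relayed by the kinase gene EIF2AK4 (GCN2) to the transcription factor ATF4 and its partners. Of 10 genes for such regulators, all were tested and 8 passed, 6 lower and 2 higher, beside 15.3% of all genes tested. That share over all genes was larger with a minimum mean of 1 FPKM (3152 of 12259 genes). ATF4 itself had 144, 146 and 151 FPKM in Control, against 96.5, 88.3 and 103 FPKM with OX-LDL. All OX-LDL libraries were below all Control libraries (log2 fold change -0.59, SE 0.074, edgeR adjusted p = 0.005255), a smaller difference than that of ASNS in log2. CEBPG, a dimer partner of ATF4, was lower by -1.41 in log2 with a small spread (19.8 ± 1.04 and 7.28 ± 0.614 FPKM, SD, n = 3, edgeR adjusted p = 0.0006007).

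The stress-induced genes DDIT3, TRIB3 and ATF3, which ATF4 is known to drive, had log2 fold changes of -2.64, -2.39 and -2.09 (edgeR adjusted p = 0.005146, 0.002374 and 0.008395). CEBPB was lower by -1.17 (edgeR adjusted p = 0.01137). In the other direction, ATF5, a related factor, was higher by 1.11 (edgeR adjusted p = 0.01836), and EIF2AK4 by 0.43 (edgeR adjusted p = 0.01912). EIF2AK3 and MYC did not pass, and MYC varied widely within both groups, from 402 to 10120 counts in Control and from 411 to 5444 counts in OX-LDL. Whether these regulators have a part in the levels of the 7 enzymes was not tested.

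The genes whose pattern over the 6 libraries was most like that of ASNS were MTPAP, NCOA7, DEGS1, TMX2 and IL20RB, with a Pearson r of 0.998 to 0.999 in log2(FPKM + 0.1). Their log2 fold changes were -0.43, -1.35, -0.72, -0.55 and -1.91, all smaller than that of ASNS. The 6 libraries form 2 groups, so any gene with a steady difference between the groups and a small spread scores high, and 167 of 12251 genes reached an r of 0.98. The correlations are therefore a description and carry no test.

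Depth was similar in all libraries, at 62561347 to 76797607 deposited counts, or about 15640337 to 19199402 read pairs at 4 counts per pair, and every member had at least 1500 counts in each library. Of the marker genes of a differentiated proximal tubule, 8 of 10 had a mean under 0.1 FPKM, and LRP2 had no counts, so the labelled cell type is not shown by these markers. The exceptions were SLC5A2, at a low level, and GGT1, whose reads were split unevenly between 2 overlapping entries of the table. The first entry had 1215, 7126 and 1392 counts in Control and 5122 to 7063 with OX-LDL, the second had 5071, 15 and 5830 in Control and at most 16 with OX-LDL, and both together had 6286 to 7222 and 5138 to 7063. The summed level of the 10 markers, 3.45 to 19.0 FPKM in Control cells and 16.1 to 18.0 FPKM with OX-LDL, counts the first entry alone and so moves with this split. Of 4 general epithelial markers, EPCAM (51.2 and 53.1 FPKM), KRT8 and KRT18 were well expressed, while CDH1, which encodes E-cadherin, was nearly absent (0.0968 and 0.106 FPKM, 15 to 73 counts). KRT8 was higher in OX-LDL (37.5 ± 6.50 and 65.4 ± 4.96 FPKM, SD, n = 3, edgeR adjusted p = 0.01162). The summed level of 4 leukocyte markers was 0.227 to 0.380 FPKM in Control, against 0.234 to 0.476 FPKM with OX-LDL, that of 3 endothelial markers was under 0.1 FPKM in every library, and PTPRC had 8 counts in 1 library and none in the rest. Whether the markers that moved have a part in the values of the 7 enzymes was not tested.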

How the data were processed

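Poly(A) RNA of 6 HK-2 samples was sequenced by the study as paired reads of 150 bp from libraries with dUTP in the second strand. The authors deposited 1 table with an estimated count per gene, not scaled for library size, and FPKM values, which the authors scaled by gene length and library size. The estimated counts are whole numbers and were used as deposited. The submitters' processing notes name cutadapt 1.9, HISAT2 2.0.4, StringTie 1.3.4d, edgeR, DESeq2 and GRCh38, and the strand setting and the treatment of reads with several matches are not given in the sources used here. A count of 0 is listed at 0.0001 FPKM. Genes at 4, 8 and 12 counts were in excess of their neighbours, which was read as about 4 counts per read pair, and 12 counts (3 read pairs) in a library was taken as the limit of detection.

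Libraries were grouped by their labels. The counts were normalised by TMM and tested with edgeR 4.0.16 in R 4.3.3 (glmQLFit and glmQLFTest, group as its term) for every gene whose mean reached 0.1 FPKM, with Benjamini-Hochberg adjustment over all of them. For a standard error, the size of the log2 fold change was divided by the root of F. The test was tested on simulated counts first. Ratios were taken from FPKM and compared by exact permutation, and 2 of the 5 are not reported here. Within groups, the chi-square of 2 libraries was 15.7 to 27.3 per gene, so none was a repeat deposit. Between libraries of the same replicate number, the deviations from the group means had correlations of -0.050 to -0.0055. These correlations take in many genes at low levels, so they do not show whether the libraries were paired.

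The members and all gene lists were chosen with earlier results of these data known. The genes named are the members, the genes that overlap them or enter a ratio, up to 3 genes with the smallest p that passed in each of the 4 lists of other pathway genes, the regulators, the markers, and the 5 genes most like ASNS among genes whose mean reached 1 FPKM. Other glutamine genes that passed, GLUD2 and single markers were named after their values were seen. Symbols matched 41967 of the identifiers. Coordinates are those of the table, and exon overlaps are from GENCODE release 29 on the same build. RefSeq promoter windows were at hand for 5 members and not for PYCR1 and GPT2. Alternatives were DESeq2 1.42.0, RLE, upper-quartile and total-count scaling, other minimum levels, limma 3.58.1 on log2(FPKM + 0.1, 1 or 0.01), counts divided by 4, summed overlapping entries, the replicate block and leaving out each library.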

Additional observations from a re-analysis of the deposited data

How the results depend on the processing

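Of 127 alternative values for the 7 enzymes, 112 kept their direction and their side of the threshold, 15 kept the direction but did not pass, and none reversed. Some of these values could hardly differ from the main fit. Adding overlapping entries on the same strand changed the counts of ASNS alone, and both ways of summing gave -3.193 for ASNS. ASNS, PYCR1, ALDH18A1 and GOT1 passed in all of their alternatives. With single libraries left out, GPT2 ranged from -1.167 to -0.7091 in log2 and never passed, GOT2 from 0.3498 to 0.4178 and GLUL from 0.6581 to 0.8911. GPT2 also did not pass with no minimum level (-1.025, adjusted p = 0.0576). With the replicate block, GPT2 was at -0.9907 (edgeR adjusted p = 0.136) and GOT2 at 0.3823 (edgeR adjusted p = 0.051), and neither passed. The block lowered the genes passing from 2991 to 1636 over all genes and from 11 to 7 over the other pathway genes. Without 1 library, the number passing was 1161 to 2943 over all genes, 4 to 6 of the 7 enzymes and 6 to 9 of the other pathway genes. Over all genes, 1796, 1161 and 1993 passed without Control 1, 2 and 3. Without OX-LDL 1, 2 and 3, 1262, 2943 and 1163 passed. Of the other pathway genes, 7 passed without any 1 Control library, 6 without OX-LDL 1 or 3 and 9 without OX-LDL 2. DESeq2 called 4430 genes. The share of higher genes among those that passed was 45.5 to 55.1% over all settings, and no scaling moved the median log2 fold change by over 0.1. The 5 ratios kept their direction without any 1 library and from counts. Each fit without 1 library has fewer degrees of freedom, the one without OX-LDL 2 included. The causes of the differences between the fits were not tested. Library strand, reads shared between overlapping entries, and 3 libraries a group limit what can be said of small differences.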
